A study of Mus musculus with 17 samples.

Results

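The genes described here are 9 genes widely used to recognise microglia, the resident macrophages of the brain: P2ry12, Tmem119, Cx3cr1, Csf1r, C1qa, C1qb, C1qc, Trem2 and Fcrls. They were taken by symbol from the 25239 genes of the count tables, and each symbol had 1 row in each of the 3 tables. The series holds 17 bulk RNA libraries of 2 brain areas, orbitofrontal cortex (OFC) and medial prefrontal cortex (mPFC), of the mouse line DAT-cre, in which the dopamine transporter gene drives Cre recombinase. Mice went through an addiction protocol named oDASS, optogenetic self-stimulation of dopamine neurons, and were sorted by outcome: perseverers count as addicted, renouncers as not addicted. The 6 groups were OFC tissue imprints before oDASS from 3 renouncer and 2 perseverer libraries, OFC dissections after oDASS from 3 renouncers and 3 perseverers, and mPFC dissections after oDASS from 3 renouncers and 3 perseverers. All groups shared the DAT-cre line, and no group without oDASS and no age was given in the labels. The labels do not say whether libraries of a group came from separate animals, so p-values measure only the spread between these libraries, which may be technical. OFC and mPFC dissections of the same phenotype and replicate number carry neighbouring sample codes. Whether such a pair came from 1 animal is not stated, so the 12 dissections may stand for fewer animals in the region comparison, the interaction and the correlations.

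Microglia enter the brain early in development, renew themselves there and survey the tissue with motile processes. P2ry12 is a receptor for nucleotides that leak from injured or active cells and steers those processes. Cx3cr1 is the receptor for the neuronal chemokine fractalkine (Cx3cl1), and Csf1r is the receptor for Csf1 and Il34, on which microglial survival depends. Tmem119 is a transmembrane protein, and Fcrls an Fc receptor-like scavenger receptor, both used to tell microglia from blood-derived macrophages. C1qa, C1qb and C1qc encode the chains of C1q, which starts the classical complement cascade and tags synapses for removal. Trem2 is a lipid-sensing receptor that signals through Tyrobp. Some of these genes are also used outside the brain: P2ry12 is the ADP receptor of blood platelets, and Csf1r and Cx3cr1 are carried by blood monocytes.

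Positions are those of GRCm38, the assembly also known as mm10. C1qb (chr4:136880126-136886200), C1qc (chr4:136889801-136892936) and C1qa (chr4:136895916-136898844) sit side by side on the minus strand of chromosome 4. P2ry12 (chr3:59216271-59262985) and Fcrls (chr3:87250736-87263765) lie on the minus strand of chromosome 3. Tmem119 (chr5:113793729-113800396) and Cx3cr1 (chr9:120048683-120068296) lie on the minus strand and Trem2 (chr17:48346401-48352276) on the plus strand. Of the exon bases of Csf1r, 15.1% are shared with exons of Hmgxb3, and of those of Cx3cr1, 1.73% are shared with Gm33858. The library kit does not keep the strand, so reads in the shared bases cannot be told apart by strand. The share for Csf1r is over 5774 exon bases of the GENCODE annotation, while its deposited length is 3875 bases, so the bases counted may differ. How far the Csf1r counts are affected was not tested.

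The macrophage transcription factor PU.1 binds an ETS-type motif, and the core AGGAAGT was searched on both strands in the 250 bases before the transcription start. RefSeq promoter entries of GRCm38.p6 were found for 6 of the 9 genes (P2ry12, Cx3cr1, C1qb, C1qc, Trem2 and Fcrls). The motif was present in 4 of them and in 2525 of all 32851 promoters (7.69%). The windows around it are shown because the motif is a sequence feature these promoters share that was not used to choose the genes. The core is in capitals, each window is written 5′ to 3′ on the strand of its gene, and a core on the other strand reads ACTTCCT.
P2ry12: agctaacaagaAGGAAGTtccccagtgac
Fcrls: acaactttgccACTTCCTttttttcctat
C1qb: caggacctgaaACTTCCTgagggcagcag
C1qc: ggacggcagacACTTCCTcattttggcac
The P2ry12 window (chr3:59263020-59263048) has its core 52 bases before the RefSeq start and overlaps an exon of Med12l. The Fcrls window (chr3:87263582-87263610) has its core 75 bases before the start of its promoter entry. That start is internal to the gene, so the window lies within the Fcrls span given above, and it overlaps a Fcrls exon of GENCODE. The C1qb window (chr4:136886236-136886264) has its core 53 bases upstream. The C1qc window (chr4:136893092-136893120) has its core 195 bases before the start of its promoter entry, which lies inside the C1qc span given above. The match describes the letters only, and binding was not measured.

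Libraries held 8960549 to 10662666 counts in the imprints and 12392731 to 20945108 in the dissections. Haemoglobin genes took 85.4% to 90.7% of the counts in 4 imprints, 29.7% in renouncer imprint 1 and 0.0253% to 0.0787% in the dissections. That left 980475 to 1306576 other counts in 4 imprints and 6556037 in renouncer imprint 1. Levels are therefore given as CPM, counts per 1000000 counts, with the haemoglobin genes left out of the total. Other red cell genes stayed in that total. They summed to 6218, 180060 and 119390 CPM in renouncer imprints 1 to 3 and to 66498 and 161740 CPM in perseverer imprints 1 and 2. In the dissections they summed to 3.46 to 11.4 CPM. How far they lower the imprint levels of the 9 genes was not tested. The 9 genes together received 529 to 7774 counts in an imprint and 10606 to 18088 in a dissection.

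All 9 genes were measured in each of the 17 libraries. In the 12 dissections, levels per kilobase of gene length, the scale on which genes can be compared, put the C1q genes on top, with 160 ± 29 CPM per kilobase for C1qb, 114.2 ± 19.4 for C1qc and 95.6 ± 18.7 for C1qa (SD, n = 12). Csf1r followed at 41.2 ± 12.3 and Trem2 at 31.1 ± 8.0 CPM per kilobase. The other 4 genes lay close together, between 23.6 ± 3.9 for Cx3cr1 and 29.4 ± 6.6 for Tmem119, and Trem2 was close to Tmem119. The SD is that between libraries, and differences between genes within a library were not tested. The summed level of the 9 genes was 840 ± 158 CPM in the OFC dissections and 879 ± 123.8 CPM in the mPFC dissections (SD, n = 6 each), and 1000.4 ± 339.1 CPM in the imprints (SD, n = 5). In bulk tissue, fewer microglia and less RNA per microglial cell cannot be told apart. As a check of the tissue, the excitatory neuron marker Slc17a7 was at 1271 to 1754 CPM in the OFC dissections, 1243 to 1811 CPM in the mPFC dissections and 237 to 646 CPM in the imprints.

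The order of the 6 groups differed between genes. P2ry12 was highest in the renouncer imprints (157 ± 78 CPM, SD, n = 3) and the perseverer imprints (111.6 ± 38.1 CPM, n = 2), followed by the mPFC renouncers (71.0 ± 10.5 CPM), the mPFC perseverers (62.5 ± 12.1 CPM), the OFC perseverers (56.7 ± 4.6 CPM) and the OFC renouncers (55.0 ± 8.9 CPM). The step from the perseverer imprints to the mPFC renouncers was the only one in that order without overlap. Renouncer imprint 2, at 76.3 CPM, lay below mPFC renouncer 3, at 82.3 CPM. Tmem119 followed the same order, from 84.4 ± 50.1 CPM in the renouncer imprints to 54.1 ± 14.3 CPM in the OFC renouncers, with overlap at each step. Cx3cr1 was highest in the perseverer imprints (110.9 ± 11.9 CPM), above the mPFC renouncers (91.9 ± 3.9 CPM) without overlap, and lowest in the renouncer imprints (68.8 ± 31.9 CPM).

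For the remaining 6 genes each group overlapped the next in order. The group means of Csf1r ran from 129 ± 23 CPM in the OFC renouncers to 190 ± 78 CPM in the renouncer imprints, and those of Fcrls from 45.7 ± 12.7 CPM in the OFC perseverers to 58.5 ± 7.2 CPM in the mPFC perseverers. Among the complement chains the group means ran for C1qa from 93.7 ± 15.7 CPM in the perseverer imprints to 109.9 ± 37.3 CPM in the OFC renouncers, for C1qb from 162 ± 18 CPM in the mPFC perseverers to 217 ± 107.97 CPM in the renouncer imprints, and for C1qc from 113.8 ± 3.4 CPM in the mPFC perseverers to 138 ± 90 CPM in the renouncer imprints. Trem2 was lowest in the mPFC perseverers (29.0 ± 6.5 CPM) and highest in the OFC renouncers (41.5 ± 15.3 CPM). The SD of the renouncer imprints was the largest of the 6 groups of libraries for P2ry12, Tmem119, Cx3cr1, Csf1r, all 3 C1q genes and Trem2.

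**Figure D1:**
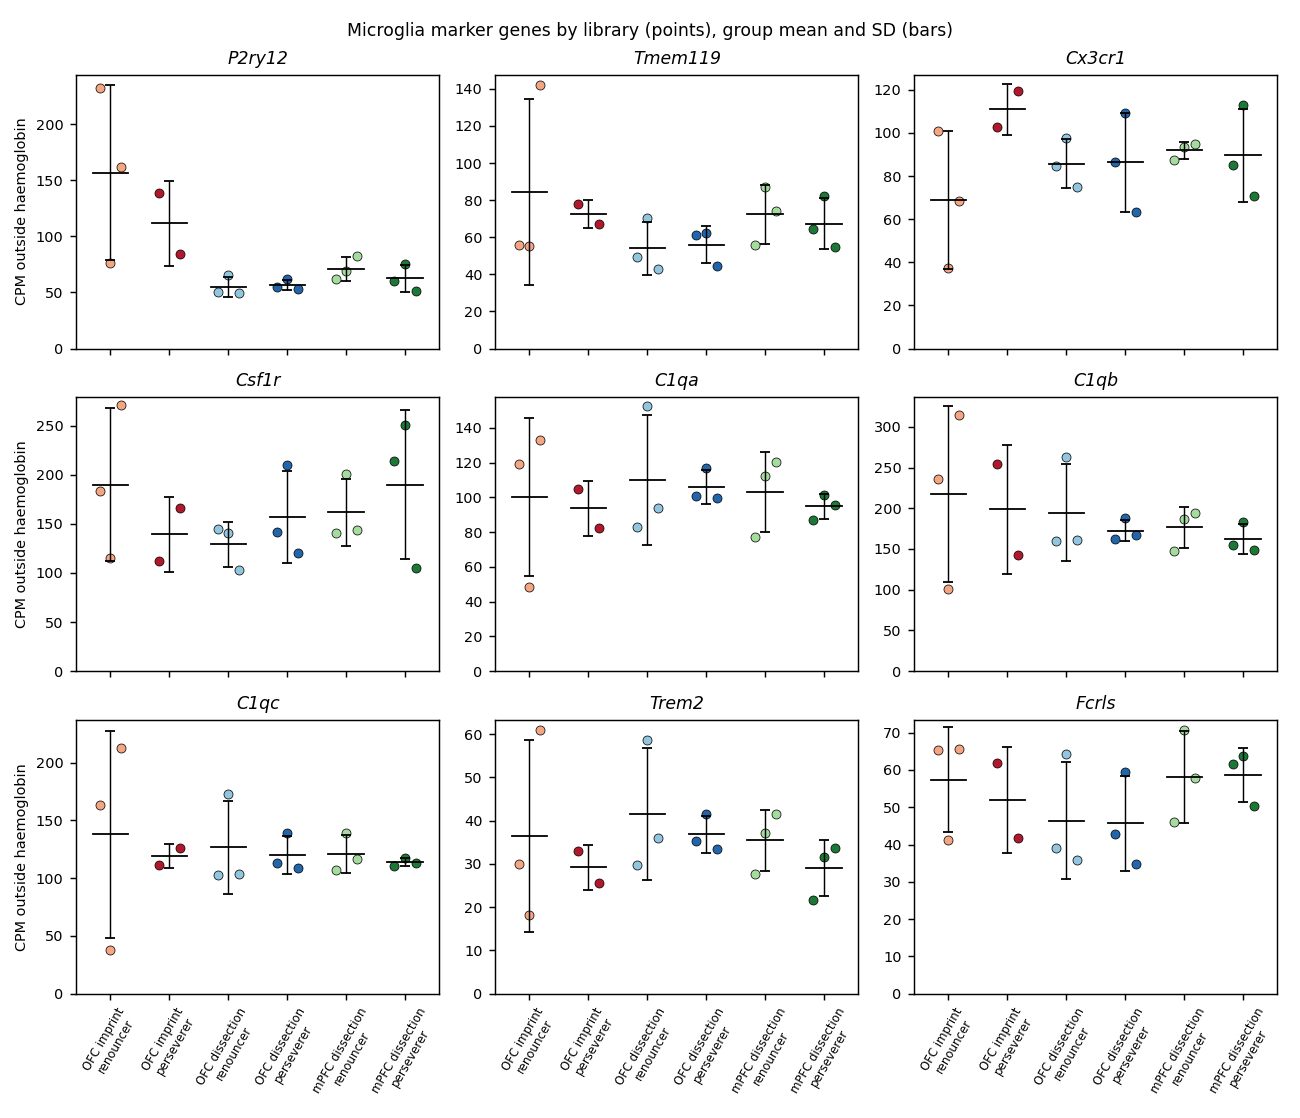
Level of each of the 9 genes (y axis, CPM outside haemoglobin genes, linear from 0) in the 6 groups (x axis). Points are libraries, horizontal bars are group means and error bars are the SD over 2 or 3 libraries; the phenotypes overlap within each dissected region for each of the 9 genes, and P2ry12 is highest in the imprints.

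Between perseverers and renouncers, none of the 9 genes passed the test at any stage or in either region. After oDASS the genes differed between phenotypes by at most 1.24-fold in the OFC (Csf1r) and 1.20-fold in the mPFC (Csf1r), within the spread of the replicates. Before oDASS Cx3cr1 was 1.95-fold higher in the perseverer imprints, with an interval that included no difference. These comparisons address whether the phenotypes differ in microglial transcripts before or after the protocol.

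In the OFC dissections, the receptor genes overlapped between phenotypes. Csf1r was at 145, 140 and 103 CPM in renouncers and 142, 210 and 120 CPM in perseverers. Only perseverer 2 lay above all renouncers, and the log2 fold change was 0.30 ± 0.21 (SE, edgeR adjusted p = 0.951). Without perseverer 2 it was 0.06. P2ry12 was at 50.7, 65.2 and 49.1 CPM in renouncers and 55.0, 62.0 and 53.2 CPM in perseverers, all within the renouncer range. Cx3cr1 was at 84.9, 97.5 and 75.1 CPM in renouncers and 86.4, 109 and 63.5 CPM in perseverers. For Cx3cr1 the perseverers held both the highest and the lowest value. Trem2 was at 29.7, 58.7 and 36.1 CPM in renouncers and 35.3, 41.6 and 33.5 CPM in perseverers. Of the complement chains, C1qb was at 160.1, 263 and 161 CPM in renouncers and 163, 187 and 168 CPM in perseverers, so that all perseverers lay within the renouncer range. Renouncer 2 was the highest OFC dissection for P2ry12, Trem2, Tmem119 (70.2 CPM), Fcrls (64.3 CPM) and all 3 C1q genes.

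The test found 0 of the 9 genes changed in the OFC dissections, where 0% of 14621 genes passed the adjusted threshold and 377 (2.58%) had an unadjusted p under 0.05. DESeq2 also called 0 genes, with 420 at an unadjusted p under 0.05. The log2 fold changes of the 9 genes ran from -0.15 (C1qb and Trem2) to 0.30 (Csf1r), with a median of -0.0046 against 0.00097 over all genes tested. The approximate 95% intervals ran up to 1.63-fold (Csf1r) and down to 0.652-fold (Trem2) in perseverers. They are too narrow for so few libraries, so larger differences are not excluded.

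In the mPFC dissections, the same overlap was seen. Csf1r was at 141, 201 and 144 CPM in renouncers and 214, 251 and 105 CPM in perseverers, so that perseverers again held both extremes. Trem2 was at 27.6, 37.1 and 41.6 CPM in renouncers and 21.6, 31.7 and 33.6 CPM in perseverers. The log2 difference of Trem2 was -0.23 ± 0.24 (SE, edgeR adjusted p = 0.9498), and -0.047 without perseverer 1. That of Csf1r was 0.27, and 0.037 without perseverer 2. P2ry12, the nucleotide receptor, was at 61.6, 69.0 and 82.3 CPM in renouncers and 60.2, 75.6 and 51.7 CPM in perseverers. C1qb was at 147, 187 and 195 CPM in renouncers and 155, 183 and 149 CPM in perseverers. For C1qb all perseverers again lay within the renouncer range. None of the 9 genes was called, against 0% of 14375 genes, with 639 genes (4.45%) at an unadjusted p under 0.05, and DESeq2 called 0 with 767 at that level. The median log2 fold change of the 9 genes was -0.06 against 0.0035 over all genes tested. The intervals, which are likewise too narrow, ran up to 1.74-fold (Csf1r) and down to 0.612-fold (Trem2).

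In the imprints, Cx3cr1 was at 101, 37.2 and 68.4 CPM in renouncers and 103 and 119.3 CPM in perseverers. The perseverer values lay above all renouncer values, by a margin of under 2 CPM over renouncer imprint 1. Cx3cr1 was the only one of the 9 genes whose groups did not overlap upward, which 3.87% of the 10530 genes tested also showed. Its log2 fold change was 0.96 ± 0.50 (SE), with an unadjusted p of 0.0798 and an adjusted p of 0.9999 by edgeR, and an approximate 95% interval of 0.991-fold to 3.82-fold. The log2 fold change of Cx3cr1 was 0.33 without perseverer imprint 2 and 0.95 without renouncer imprint 1. The counts behind it were 662, 37 and 74 in renouncers and 134 and 117 in perseverers.

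Fractalkine, the ligand of Cx3cr1, was at 67.3 to 227 CPM in the imprints. C1qb showed how far the imprints spread, with 236, 101 and 315 CPM in renouncers and 255 and 143 CPM in perseverers, and renouncer imprint 2, the library with the fewest counts for the 9 genes, was lowest of the imprints for 8 of them. The other 8 genes overlapped between the imprint groups, with log2 fold changes from -0.34 (P2ry12) to 0.09 (C1qc). None of the 9 genes was called (edgeR, 0% of genes called and 181, or 1.72%, at an unadjusted p under 0.05; DESeq2, 0 called and 237 at that level). Lymphocyte markers were at 161 to 568 summed CPM in the renouncer and 731 to 2012 summed CPM in the perseverer imprints, with 9 of 9 measured markers higher and none called, and monocyte and neutrophil markers were at 469 to 4109 and 856 to 1971 summed CPM. The part of blood cells in the Cx3cr1 values was not tested.

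**Figure D2:**
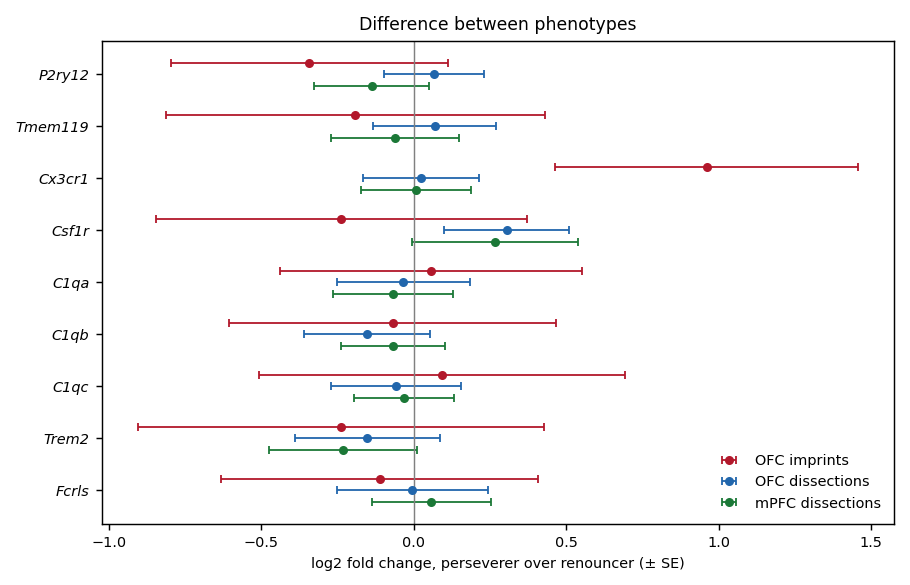
Difference between phenotypes for each gene (y axis) as log2 fold change of perseverers over renouncers (x axis), with bars of 1 SE from the edgeR fit, in OFC imprints, OFC dissections and mPFC dissections. Most values lie within 1 SE of 0, the imprint bars are the widest, and Cx3cr1 in the imprints stands farthest from 0 at 0.96.

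The phenotype difference was also compared between the regions. The interaction of phenotype and region called none of the 9 genes and 0% of 15025 genes, with 225 genes (1.5%) at an unadjusted p under 0.05. The differences between the regions' log2 fold changes ran from -0.07 for C1qb to 0.22 for P2ry12.

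Genes that work with the 9 were examined from lists of other microglia genes, ligands and partners, complement genes and microglial activation genes. Of 37 other microglia genes, none was called between phenotypes in the OFC dissections (median log2 fold change 0.10), the mPFC dissections (-0.13) or, with 36 measured, the imprints (0.28). Of 24 measured activation genes, which include chemokines, antigen presentation genes and genes of phagocytic microglia, 0 were called in the OFC (6 with a value above 0, against 50.2% of all genes, and a median of -0.28). Of 19 measured in the mPFC, 0 were called (median -0.06). Of the complement genes, 0 of 20 were called in the OFC and 0 of 19 in the mPFC.

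Between regions, the levels of the 9 genes also overlapped. With phenotype held, 0 of the 9 genes passed the test, against 1.76% of 15025 genes (264 called by edgeR). With the replicate number as a block, which the labels do not tie to an animal, edgeR called 1130 genes and 1 of the 9, Fcrls (adjusted p = 0.0439). Fcrls and Tmem119 were lower in the OFC in 6 of 6 same-numbered pairs. Values below 0 were those of Tmem119, Fcrls, Csf1r, P2ry12 and Cx3cr1, and values above 0 those of Trem2 and the C1q genes (4 of 9, against 50.3% of all genes). Tmem119 had a log2 difference, OFC minus mPFC, of -0.32 ± 0.15 (SE, unadjusted p = 0.0469, adjusted p = 0.340), Fcrls -0.32 ± 0.16 (adjusted p = 0.393) and P2ry12 -0.23 ± 0.12 (adjusted p = 0.405). Trem2 had a value of 0.30 ± 0.18 (adjusted p = 0.472) and the C1q genes values of 0.09 to 0.15, none of which passed. At an unadjusted p under 0.05, 14.3% of all genes and 1 of the 9 (Tmem119) were found.

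Fcrls, the scavenger receptor, was at 34.7, 40.9 (median) and 64.3 CPM in the 6 OFC dissections and 45.9, 59.7 (median) and 70.7 CPM in the 6 mPFC dissections (lowest, median and highest). The ranges overlapped on this scale. As a share of the summed counts of the 9 genes, a scale chosen after the data were seen that does not depend on library scaling, Fcrls was at 4.78%, 5.29% and 6.03% in the OFC and 6.12%, 6.60% and 7.17% in the mPFC. On that scale the regions did not overlap, which 0.419% of all genes tested showed in the same direction when divided by the same sum. For the other 8 genes the shares overlapped between regions. Tmem119 made up 6.55% ± 0.57 of the sum in the OFC and 7.89% ± 0.49 in the mPFC (SD, n = 6 each), and Trem2 4.63% ± 0.55 and 3.69% ± 0.81. Oligodendrocyte markers, whose cells are more numerous where white matter is included, were at 5788 to 18816 summed CPM in the OFC and 2095 to 8295 in the mPFC dissections, and their part in the region values was not tested.

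In the region comparison, 0 of 37 other microglia genes passed the test (median 0.06). Of 23 measured activation genes, 2 were called higher in the OFC and none lower. Clec7a, a lectin receptor for fungal glucans, was at 3.01 to 10.7 CPM in the OFC and 0 to 0.731 CPM in the mPFC (edgeR adjusted p = 0.0052). Lgals3, a galectin of phagocytic macrophages, was at 0.913 to 12.8 CPM in the OFC and 0.224 to 1.32 CPM in the mPFC (adjusted p = 0.0085). Of 20 complement genes, 1 was called, C3, the central component on which the cascade that C1q starts converges, at 0.326 to 2.50 CPM in the OFC and 0 to 0.336 CPM in the mPFC (adjusted p = 0.0348). C3 missed the threshold in 10 of the 12 fits that left out 1 library, while Clec7a and Lgals3 passed in each of them. All 3 were low next to the C1q genes. The astrocyte marker Gfap, an intermediate filament, was also called higher in the OFC, at 267 to 611 CPM against 101 to 245 CPM in the mPFC (log2 1.39 ± 0.22 SE, adjusted p = 0.0047), the only one called of 8 astrocyte markers, of which 7 had a value above 0. The part of astrocytes in the values of Clec7a, Lgals3 and C3 was not tested. Border macrophage markers, for macrophages of the meninges and vessels, were at 10.04 to 33.2 summed CPM in the OFC and 12.4 to 25.7 in the mPFC.

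Within the dissections the 9 genes varied together, but not evenly. Over the 12 dissections, 35 of the 36 pairs of genes had a positive Pearson correlation of log2 CPM, with a median of 0.56. The highest was between C1qa and C1qb (0.93), followed closely by Tmem119 and Fcrls (0.92). The only negative pair was Csf1r with Trem2 (-0.20). C1qa, C1qb, C1qc and Trem2 correlated with each other at 0.76 to 0.93, and P2ry12, Tmem119 and Fcrls at 0.76 to 0.92, while pairs between these sets, which were formed after their values were seen, lay at 0.22 to 0.68. These values describe 12 libraries, and genes in a library share its depth and composition.

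The summed level set some libraries apart. In the OFC it was 745, 1085 and 700.2 CPM in renouncers and 799, 988 and 726 CPM in perseverers, and in the mPFC 750.0, 997 and 926 CPM in renouncers and 860.0, 1019 and 724 CPM in perseverers. Libraries of both phenotypes were among the high and the low ones. Of 11953 other genes with a mean log2 CPM of at least 2, those closest to the mean standardised pattern of the 9 genes were Scand1 (r = 0.89), Entpd1 (0.85), Tcn2 (0.84), Lpxn (0.84) and Slc16a11 (0.84), over the 12 dissections. Entpd1 encodes the surface enzyme CD39, which breaks down the nucleotides that P2ry12 senses, and it was among the other microglia genes listed. It was the highest of the 34 such genes compared, whose r had a median of 0.43, against 0.04 over all 11953 genes. The lowest were Hpgds (-0.24) and Mertk (-0.27).

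The deposited gene lengths put the genes in an order that runs in part along these correlations. C1qc (1054 bases), C1qa (1082), C1qb (1104) and Trem2 (1146) are the shortest, Fcrls (1991), Tmem119 (2122) and P2ry12 (2557) intermediate, and Cx3cr1 (3753) and Csf1r (3875) the longest. Each library has a gene length trend, the Spearman correlation over 8445 genes between gene length and the gene's deviation from its mean log2 level over the 12 dissections, which ran from -0.40 to 0.40 in the dissections. The share of Csf1r in the summed counts of the 9 genes was higher in libraries with a higher trend (r = 0.78, rho = 0.74 over 12 libraries, r = 0.75 without the 2 libraries farthest from the median; r = 0.94 within the OFC and 0.80 within the mPFC). The share of Trem2 was lower in them (r = -0.61, rho = -0.59, and -0.65 without 2 libraries; -0.94 within the OFC and -0.81 within the mPFC). For Tmem119 the signs differed between regions (r = 0.05 over all, 0.37 within the OFC and -0.25 within the mPFC). Cx3cr1, nearly as long as Csf1r, had r = 0.38 over all, 0.51 within the OFC and 0.18 within the mPFC. P2ry12, longer than Tmem119, had r = -0.29, -0.04 and -0.62. Over all 12 libraries Fcrls had r = 0.09, and the C1q genes had -0.39 (C1qc), -0.61 (C1qa) and -0.63 (C1qb).

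The ratio of Csf1r to Trem2 counts ranged from 2.39 in OFC renouncer 2, a library with a length trend of -0.29, to 9.92 in mPFC perseverer 1, with a trend of 0.28. In the OFC the trends were 0.28, -0.29 and -0.40 in renouncers and 0.18, 0.40 and -0.01 in perseverers. In the mPFC they were -0.05, -0.12 and -0.37 in renouncers and 0.28, 0.31 and -0.03 in perseverers. Csf1r had the highest and Trem2 the lowest or next to lowest phenotype value of the 9 genes in both regions, and the part of the length trend in those values was not tested.

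**Figure D3:**
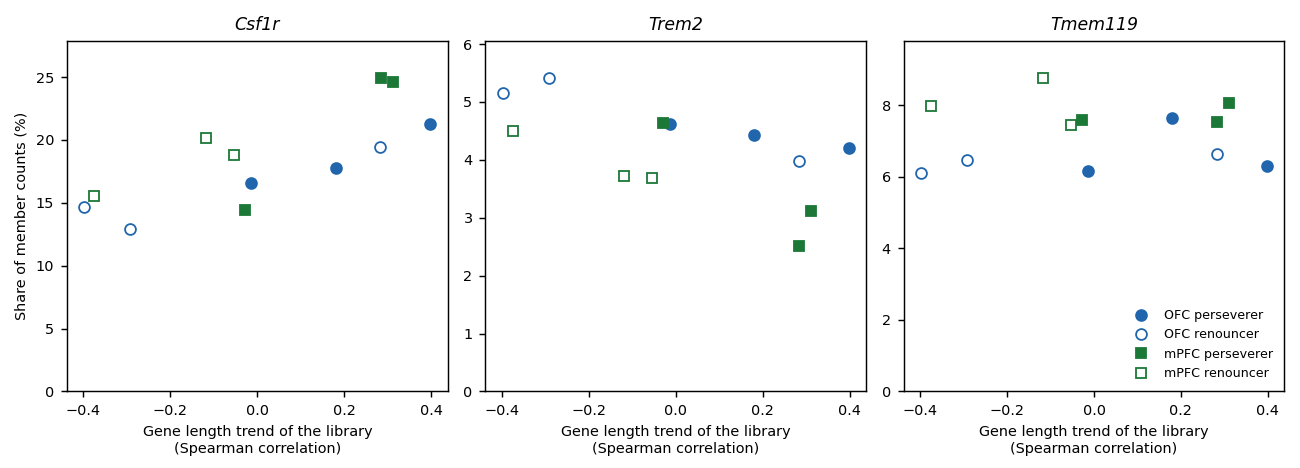
Share of Csf1r, Trem2 and Tmem119 in the summed counts of the 9 genes (y axes, percent, from 0) against the gene length trend of the library (x axis, Spearman correlation) in the 12 dissections. Circles are OFC, squares mPFC, filled symbols perseverers and open symbols renouncers; Csf1r is higher and Trem2 lower in libraries with a higher trend.

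Between the OFC imprints before oDASS and the OFC dissections after it, P2ry12 had the highest fold change of the 9 genes. As fitted, it was 4.08-fold higher in the imprints (log2 2.03 ± 0.19 SE, edgeR adjusted p = 9.456e-07), while with library totals alone its log2 value was -0.72. Stage and way of collection coincide in this comparison and cannot be told apart. The size and the sign of the values depend on how libraries that are mostly haemoglobin are scaled.

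P2ry12 was at 232, 76.3 and 162 CPM in the imprints of renouncers and 139 and 84.7 CPM in those of perseverers. In the OFC dissections it was between 49.1 and 65.2 CPM, with a median of 54.1. Every imprint lay above every OFC dissection, and P2ry12 was the only one of the 9 genes for which this held, as for 5.13% of the 15229 genes tested. As a share of the summed counts of the 9 genes, P2ry12 took 19.6% (exact 95% binomial interval 18.7% to 20.5%), 14.4% and 11.3% in the imprints of renouncers and 13.9% and 9.88% in those of perseverers, against 6.01% to 7.33% in the OFC dissections. Again no imprint overlapped a dissection, which 4.04% of genes showed in this direction on this scale. The interval covers counting error only.

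**Figure D4:**
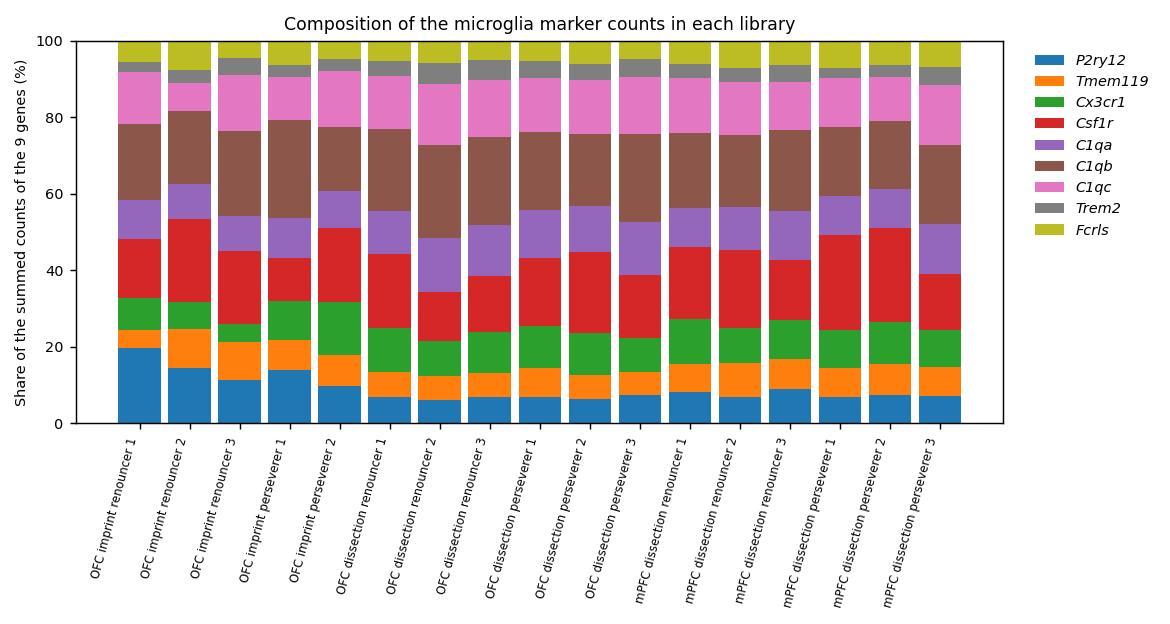
Make-up of the summed counts of the 9 genes (y axis, percent of the sum, from 0 to 100) in each of the 17 libraries (x axis). Each colour is 1 gene; the P2ry12 segment spans 9.88% to 19.6% in the 5 imprints and 6.01% to 8.89% in the 12 dissections.

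C1qa had the opposite sign on this scale, with a share of 9.71% ± 0.57 in the imprints (SD, n = 5) and 12.8% ± 1.1 in the OFC dissections (SD, n = 6), without overlap, as for 35.3% of genes. The other chains of C1q overlapped, with C1qb at 20.6% ± 3.3 and 21.9% ± 2.0 and C1qc at 12.3% ± 3.2 and 14.6% ± 0.8. The ratio of P2ry12 to Tmem119 counts had a median of 1.38 in the imprints (1.14 to 4.16) and 1.0099 in the OFC dissections (0.901 to 1.19). The highest ratio came from renouncer imprint 1, the imprint with the least haemoglobin, where Tmem119 was at 55.8 CPM beside 232 CPM of P2ry12.

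With TMM scaling, 8 of the 9 genes were called higher in the imprints (all 9 fell below 0 with library totals alone), where 33.5% of all genes were called, 15.6% higher and 17.9% lower. After P2ry12 the log2 values were 1.41 ± 0.31 for Tmem119, 1.15 ± 0.30 for Csf1r, 1.08 ± 0.26 for Fcrls, 0.97 ± 0.23 for C1qb, 0.87 ± 0.29 for C1qc, 0.82 ± 0.26 for Cx3cr1 and 0.65 ± 0.24 for C1qa (SE). Trem2, at 0.57 ± 0.32 (edgeR adjusted p = 0.185), was not called. All 9 values were above 0, as were 44% of those of all genes, and the median of the 9 genes was 0.97 against -0.16 over all genes tested. Without renouncer imprint 1 all 9 genes were called, with P2ry12 at 2.13, as were 5488 of all 15082 genes tested. The number of the 9 genes called fell to 4 without perseverer imprint 2 and to 5 without OFC dissection perseverer 1 or perseverer 3. Over all genes, the fits that left out a library called 4138 to 5488.

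With the counts outside haemoglobin as library size, a setting chosen after the data were seen, only P2ry12 was called, at 1.28, and 6 of the 9 values were above 0. Of all 15675 genes tested in that setting 6289 were called, 1463 of them higher. With library totals alone all 9 values were below 0, from -2.62 for Trem2 to -0.72 for P2ry12. In that setting 5 of the 9 were called lower, as were 10133 of all 15229 genes tested. The median of all genes moved with the values of the 9 genes, from -0.16 to -0.80 and -2.82. Relative to that median, P2ry12 was 2.08 to 2.37 log2 units higher in all 8 settings run, and the lowest of the 9 genes was above it by 0.20 to 0.84. The direction of the fold change itself followed the scaling. A change of scaling shifts genes in large part by a common amount, which subtracting the median takes out again. The shift was not equal for all genes. Relative to the median, Tmem119 was at 1.57 with TMM and 0.86 with library totals, Trem2 at 0.73 and 0.20, and P2ry12 at 2.19 and 2.10. Because much of the shift is common, the place of the 9 genes above the median gene was largely bound to agree between settings. That agreement is no separate support, and many other genes lie above the median by definition.

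**Figure D5:**
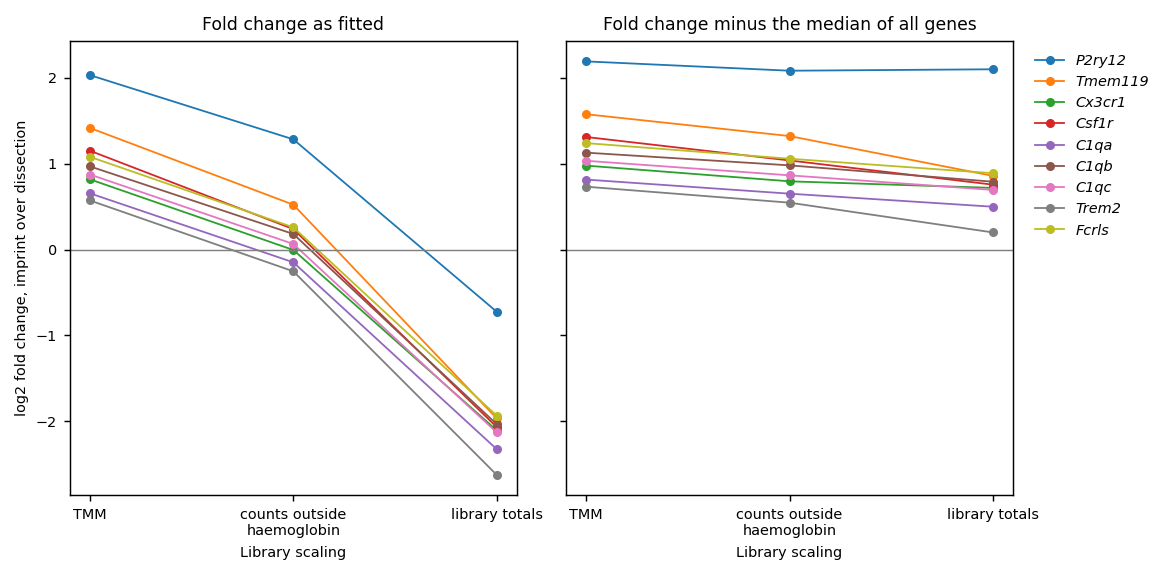
log2 fold change of OFC imprints over OFC dissections (y axis) for each of the 9 genes under 3 library scalings (x axis), as fitted (left) and after subtracting the median of all genes (right). As fitted, all 9 genes fall below 0 with library totals; relative to the median gene all 9 stay above 0 and P2ry12 is the highest at each scaling.

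Blood markers differed between the same libraries. Platelet markers summed to 1267 to 3386 CPM in the imprints and 174 to 225 CPM in the OFC dissections, with 8 of 8 called higher. Gp1bb, singled out after its values were seen, made up most of the sum in the dissections (167 to 221 CPM), and without it the sums were 983 to 2918 CPM and 4.79 to 7.70 CPM. In the imprints with 232, 76.3, 162, 139 and 84.7 CPM of P2ry12, the platelet sum was 2945, 1947, 3386, 1267 and 2218 CPM. The defining platelet gene Ppbp was at 581 to 1424 CPM in the imprints and at 0 to 0.655 CPM in the OFC dissections. Monocyte and neutrophil markers summed to 469 to 4109 CPM against 4.37 to 8.08 CPM, with 12 of 12 measured genes called higher, and the monocyte receptor gene Ccr2 was at 0.924 to 47.5 CPM against 0.143 to 0.342 CPM. Border macrophage markers summed to 502 to 1683 CPM against 10.04 to 33.2 CPM, and to 50.5 to 145 CPM against 8.74 to 29.7 CPM without Pf4, which platelets also carry. Of their 10 measured genes 9 had a log2 value above 0 with TMM scaling, against 44% of all genes, with a median of 2.06, and 5 were called higher. Cd163 and Lyve1, 2 genes of this list, were at 0 to 5.54 and 0 to 10.4 CPM in the imprints. Neuron markers summed to 1280 to 5791 CPM in the imprints and 10178 to 11867 CPM in the OFC dissections. The part of blood cells and of the lower neuronal RNA in the values of the 9 genes was not tested.

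The other genes of these pathways also differed. Of 37 other microglia genes, 24 were called higher and none lower, with a median of 1.41. Ptprc (6.45 ± 0.37) and Itgb2 (4.60 ± 0.31), which all leukocytes carry, had the smallest p. Of 13 ligands and partners, 6 were called higher and 3 lower. Fractalkine, which neurons make, fell by 2.01 on the log2 scale (SE 0.25) and Il34, also neuronal, fell by 1.66 (SE 0.42). Tyrobp, the signalling partner of Trem2, was at 149 to 242 CPM in the imprints and 60.7 to 128 CPM in the OFC dissections (log2 2.06 ± 0.27), next to 18.1 to 61.0 CPM and 29.7 to 58.7 CPM of Trem2. These list values were fitted with TMM scaling. With library totals alone Tyrobp was at -1.01 and Itgb2 at 1.55, neither of them called.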

How the data were processed

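Raw counts per gene were deposited by the authors in 3 tables, with a gene length in bases; build mm10 and FastQC 0.11.8 come from the submitters' processing notes, while aligner and counting program were not given in the sources used here. Per the labels' protocols, total RNA was made into libraries with SMART-Seq v4 and Nextera kits. Column names were matched to the sample labels. Counts were tested in R 4.3.3 with edgeR 4.0.16 (filterByExpr, TMM, robust quasi-likelihood fit, two-sided, Benjamini-Hochberg adjusted p under 0.05 over all genes). The 3 phenotype comparisons were fitted within their tables, the regions over the 12 dissections, and imprints against dissections over all OFC libraries, the last pair with phenotype as a term. The SE is the log2 fold change over the square root of its F statistic, and it and its intervals are approximate. The intervals use a normal quantile, which makes them too narrow for few libraries. For Fcrls between regions the interval left out 0 although the edgeR unadjusted p was 0.0653. CPM values leave out 10 haemoglobin genes and use no TMM factor; correlations use log2 of CPM plus 0.5. All 9 genes are named in each comparison, and from the 13 other lists at most the 2 genes of smallest p, unless stated. The genes and lists were chosen with earlier results of these data known. Alternatives were RLE scaling, DESeq2 1.42.0, no low-count filter, haemoglobin genes removed, library totals alone, the replicate number as a block and leaving out each library; the counts outside haemoglobin as library size were added after the data were seen. The tests were checked on simulated data.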

Additional observations from a re-analysis of the deposited data

Results flagged for a closer look

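Levels and shares of the 9 genes were checked for single libraries that stand apart, in 57 sets of 5 or 6 libraries, and 3 were found; chance alone marks about 1 set in 20. C1qb was at 263 CPM in OFC dissection renouncer 2, while the next highest OFC dissection was at 187 CPM and the lowest at 160 CPM. C1qc was at 139 CPM in mPFC dissection renouncer 2, while the next was at 117 CPM and the lowest at 107 CPM. The share of Tmem119 in the summed counts of the 9 genes was 7.65% in OFC dissection perseverer 1, while the next was 6.64% and the lowest 6.10%.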

How the results depend on the processing

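Between phenotypes no setting called any of the 9 genes, in the imprints, in either dissected region or in the interaction. In the imprints, where counts outside haemoglobin were few, signs near 0 turned: with the replicate block Tmem119 was 0.43, C1qb 0.34, Trem2 0.36 and Fcrls 0.02, and with the counts outside haemoglobin as library size C1qa was -0.11 and C1qc -0.22. In the OFC dissections C1qa was 0.018 and Fcrls 0.015 with the block, and Fcrls 0.002 with no low-count filter. In the mPFC Cx3cr1 was -0.038 with the counts outside haemoglobin and -0.01 with the block. In the interaction, Cx3cr1 was -0.016 and Csf1r -0.002 with no filter, and C1qc 0.01 with the counts outside haemoglobin and 0.019 with the block. Leaving out each library gave these ranges, for values whose sign turned or that are named above for their size. In the imprints the values were Cx3cr1 0.33 to 1.435, Tmem119 -0.57 to 0.30, Csf1r -1.12 to 0.32, C1qa -0.21 to 0.35, C1qb -0.24 to 0.32, C1qc -0.52 to 0.68, Trem2 -0.56 to 0.34 and Fcrls -0.30 to 0.069. In the OFC dissections they were Csf1r 0.061 to 0.44, P2ry12 -0.006 to 0.20, Tmem119 -0.068 to 0.30, Cx3cr1 -0.16 to 0.18, C1qa -0.21 to 0.27, C1qb -0.29 to 0.12, C1qc -0.20 to 0.23, Trem2 -0.36 to 0.17 and Fcrls -0.22 to 0.30. In the mPFC dissections they were Csf1r 0.037 to 0.54, Trem2 -0.39 to -0.047, Tmem119 -0.22 to 0.099, Cx3cr1 -0.17 to 0.13, C1qa -0.24 to 0.058, C1qb -0.19 to 0.011, C1qc -0.12 to 0.082 and Fcrls -0.090 to 0.23. Between regions they were Cx3cr1 -0.14 to 0.038 and C1qc -0.042 to 0.16. In the interaction they were Tmem119 -0.059 to 0.38, Cx3cr1 -0.21 to 0.18, Csf1r -0.25 to 0.25, C1qa -0.17 to 0.37, C1qb -0.25 to 0.22, C1qc -0.20 to 0.29, Trem2 -0.15 to 0.43 and Fcrls -0.32 to 0.27.

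Over all comparisons, same-numbered libraries had correlations of -0.17 to 0.36. The lowest, -0.17, was between OFC dissections of different phenotype and does not bear on whether OFC and mPFC libraries share an animal. The numbers were not taken as pairs because the labels name no shared animal. Between OFC and mPFC, 5 of the 6 same-numbered pairs had a correlation over 0.1 (0.023 to 0.36), and in 5 of 6 each library correlated best with its own number, which is a hint from the data and not from the labels. With the replicate block the region comparison called 1130 genes and 1 of the 9 (Fcrls, -0.35, edgeR adjusted p = 0.0439; Tmem119 had -0.32, adjusted p = 0.0521), and both genes were lower in the OFC in 6 of 6 same-numbered pairs; DESeq2 called 685 genes, and leaving out libraries gave 120 to 448 genes and 0 of the 9; 120 came without mPFC renouncer 2 and 448 without mPFC perseverer 3. Between imprints and dissections, 5 of the 9 genes were called with the block (3924 of 15229 genes in all). With the counts outside haemoglobin 1 of the 9 was called (6289 of 15675 genes in all). With library totals 5 of the 9 were called, all lower (10490 of 15229 genes in all, 10133 of them lower). Leaving out a library gave 4 to 9 of the 9 genes and 4138 to 5488 genes in all. With library totals the values were -0.72 for P2ry12, -1.964 for Tmem119, -2.10 for Cx3cr1, -2.07 for Csf1r, -2.32 for C1qa, -2.03 for C1qb, -2.13 for C1qc, -2.62 for Trem2 and -1.93 for Fcrls; Tyrobp was -1.01 with library totals; with the counts outside haemoglobin Cx3cr1 was -0.005, C1qa -0.15 and Trem2 -0.25. The cause of these differences was not tested.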
